A study of Mus musculus with 80 samples.

Results

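The short Rik transcripts on autosomes are genes that carry a RIKEN clone name ending in Rik, lie outside chromosomes X and Y, span under 2000 bp between the deposited start and stop, and average at least 1 CPM over the 80 libraries of the series. CPM is a read count scaled to a total of 1000000 in each library. The set has 27 genes. It was drawn from 186 autosomal Rik genes under 2000 bp, of which 158 fell below 1 CPM and 1, 2900060B14Rik, was left out by the rule, and from 22556 genes in the tables, 1862 of them Rik genes. Just inside the level limit lay 4930404N11Rik at 1.03 CPM and D330023K18Rik at 1.04 CPM, and just outside it 1700007L15Rik at 0.998 CPM. Just inside the length limit lay 2700046G09Rik at 1969 bp, and just outside it 2810013P06Rik at 2028 bp.

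Chromatin-associated RNA was sequenced (ChrRNA-seq) in mouse embryonic stem cells of a Mus castaneus × 129S background, grown on fibroblast feeders, in which a TetOn promoter replaces the Xist promoter so that doxycycline (Dox) induces Xist. In all lines 1 protein carries an FKBP12 F36V tag, and the compound dTAG-13 brings about its degradation. 4 tagged proteins were compared: METTL3 in clones G4 and H1 (N-terminal tag) and C3 and H5 (C-terminal tag), ZCCHC8 in clones Z4F and Z12H, ZFC3H1 in clones 8H and 11A, and YTHDC1 in clones Y9F and Y12H, which were sequenced in 2 experiments. The TetOn promoter sits on the Cast X chromosome in the METTL3 and ZFC3H1 lines, and on the 129S X chromosome, with Bgl stem-loops in Xist, in the YTHDC1 and ZCCHC8 lines. Each clone gave 4 libraries in each experiment: untreated, dTAG, Dox for 24 h, and dTAG for 2 h followed by dTAG + Dox for 24 h. Titles put dTAG treatment on its own at 26 h, whereas 2 h is stated among the treatments. The other 32 libraries come from METTL3 clone H5 cells that express GFP-METTL3, wild-type or D395A, from Rosa26, as XX or XiO lines. They entered the level limit and otherwise give values for 2 of the transcripts. Clones are separately derived lines. Each clone was compared with itself, so the tests measure how treatment effects vary between a few clones, pooled over all libraries of a fit. The ZCCHC8 fit also holds YTHDC1 experiment 1.

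METTL3 is the catalytic subunit of the complex that writes N6-methyladenosine (m6A) on nascent RNA, and YTHDC1 is the nuclear protein that reads it. ZCCHC8 is the scaffold subunit of NEXT, the nuclear exosome targeting complex, which hands short, unstable nuclear RNAs such as promoter upstream transcripts and enhancer RNAs to the RNA exosome for 3′ to 5′ decay. ZFC3H1 belongs to PAXT, the connection that feeds polyadenylated nuclear RNAs to the same exosome. Many RIKEN names mark long noncoding RNAs (lncRNAs), some of them hosts of small nucleolar RNAs (snoRNAs) or transcripts that leave a promoter away from, or run antisense to, a coding gene.

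The 27 genes lay on 15 chromosomes and spanned 377 to 1969 bp (median 1471). All 27 matched a RefSeq gene, 22 by symbol and 5 by an older name. RefSeq describes 17 as lncRNAs, 8 as protein-coding and 2 as transcribed pseudogenes. Among the coding ones are 2700094K13Rik (Selenoh, a selenoprotein) and 1500011K16Rik (Mtln, a mitochondrial micropeptide). By position 8 overlapped a gene on the opposite strand, 6 started within 1000 bp of an oppositely directed start (divergent), and 3 lay within 5000 bp downstream of a gene on their own strand. The other 10 were in none of these positions, though 5 of them lay only 337 to 2485 bp from the nearest gene. None overlapped a gene on the same strand. 13 had 1 exon. 4 held a small RNA within their span: 6430411K18Rik the microRNA Mir433, 2410006H16Rik the box C/D snoRNAs Snord49b, Snord49a and Snord65, 5730408K05Rik the H/ACA snoRNA Snora57, and 2410004N09Rik (Epb41l4aos) the snoRNA gene Gm23639. These small RNAs had no row of their own in the tables, so reads from them could count towards the Rik gene. The median GC content of the spans was 50.7%, against 46.4% for other autosomal genes under 2000 bp. A poly(A) signal hexamer, AATAAA or ATTAAA on the transcribed strand, stood in the last 50 bases of 20 of 27 spans. It stood there in 69.6% of all 22556 genes and in 31.9% of the other short genes. Unlike the 27, the genes compared for GC content and hexamer were not limited by level.

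RefSeq (GRCm38.p6) held a promoter window of 300 bases, which ends 50 bases past the annotated start, for 21 of the 27. The median window of the 21 had 23 CpG dinucleotides and 60.7% GC, against 7 CpG and 52.7% GC over all 32851 windows. All windows were taken with no limit on level, whereas the 21 average at least 1 CPM. GGGCGG (either strand) stood in 12 of 21 windows and in 35.7% of all, CCAAT (either strand) in 7 and 37.4%, and TATAAA (either strand) in 1 and 13.6%. The windows below belong to the 5 transcripts with the largest changes on ZCCHC8 depletion, shown because they are the first described one by one. Letters run 5′ to 3′ along the transcribed strand, and capitals mark the 50 bases from the annotated start. They lie at chr5:25529768-25530067 on the plus strand, chr19:32388966-32389265 on the plus strand, chr7:92741410-92741709 on the minus strand, chr6:72438433-72438732 on the plus strand and chr5:114823419-114823718 on the minus strand, in that order.
1700096K18Rik: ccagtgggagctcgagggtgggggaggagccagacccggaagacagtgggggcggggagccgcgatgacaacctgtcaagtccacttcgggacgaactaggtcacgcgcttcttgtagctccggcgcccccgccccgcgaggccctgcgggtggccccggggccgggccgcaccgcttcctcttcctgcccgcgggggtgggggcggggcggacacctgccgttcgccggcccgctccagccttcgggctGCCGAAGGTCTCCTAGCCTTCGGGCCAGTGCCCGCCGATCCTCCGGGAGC
2700046G09Rik: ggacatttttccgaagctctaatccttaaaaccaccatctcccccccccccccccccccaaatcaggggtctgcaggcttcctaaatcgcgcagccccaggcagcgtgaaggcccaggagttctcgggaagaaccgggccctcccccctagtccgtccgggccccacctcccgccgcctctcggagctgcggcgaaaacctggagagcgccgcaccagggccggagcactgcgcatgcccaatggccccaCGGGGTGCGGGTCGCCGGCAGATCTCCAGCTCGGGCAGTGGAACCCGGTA
4632427E13Rik: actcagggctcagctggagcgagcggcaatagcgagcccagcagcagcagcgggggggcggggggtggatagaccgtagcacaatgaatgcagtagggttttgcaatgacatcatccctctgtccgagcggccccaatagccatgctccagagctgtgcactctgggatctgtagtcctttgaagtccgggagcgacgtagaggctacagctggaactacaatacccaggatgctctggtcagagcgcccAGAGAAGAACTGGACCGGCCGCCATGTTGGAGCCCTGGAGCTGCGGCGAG
4930414L22Rik: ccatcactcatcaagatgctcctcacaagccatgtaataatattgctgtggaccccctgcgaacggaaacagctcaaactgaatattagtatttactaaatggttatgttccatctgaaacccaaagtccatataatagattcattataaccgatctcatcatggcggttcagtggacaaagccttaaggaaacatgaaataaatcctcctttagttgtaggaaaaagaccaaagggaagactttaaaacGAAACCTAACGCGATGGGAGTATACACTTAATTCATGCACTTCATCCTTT
2610524H06Rik: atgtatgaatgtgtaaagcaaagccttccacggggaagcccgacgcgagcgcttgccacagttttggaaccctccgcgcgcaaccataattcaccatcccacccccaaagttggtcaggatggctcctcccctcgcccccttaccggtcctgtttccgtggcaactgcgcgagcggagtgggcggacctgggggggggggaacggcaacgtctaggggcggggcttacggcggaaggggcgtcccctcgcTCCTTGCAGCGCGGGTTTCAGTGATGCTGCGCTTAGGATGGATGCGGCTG

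The 5 windows had 33, 23, 16, 7 and 26 CpG dinucleotides in the same order. The window of 4930414L22Rik, with 38.7% GC, stood apart from that of 1700096K18Rik, with 74.0%. GGGCGG was found in the windows of 1700096K18Rik, 4632427E13Rik and 2610524H06Rik, and CCAAT in those of 2700046G09Rik and 4632427E13Rik.

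The last 50 bases of 4 lncRNA spans among them, taken from the genome at the deposited coordinates (mm10), show the hexamer where it occurs in capitals. They lie at chr5:25531417-25531466 on the plus strand, chr19:32391135-32391184 on the plus strand, chr7:92740706-92740755 on the minus strand and chr6:72440566-72440615 on the plus strand. The end of 4632427E13Rik holds neither hexamer.
1700096K18Rik: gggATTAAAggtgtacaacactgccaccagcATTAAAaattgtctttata
2700046G09Rik: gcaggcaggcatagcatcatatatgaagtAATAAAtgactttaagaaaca
4632427E13Rik: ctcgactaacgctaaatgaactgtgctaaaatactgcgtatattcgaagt
4930414L22Rik: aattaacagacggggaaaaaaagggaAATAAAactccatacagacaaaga

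The 48 degron libraries held between 12.6 and 29.5 M reads each (M, 10 to the power 6). Over the 80 libraries 1 read was worth 0.0291 to 0.117 CPM, so that counts behind the lowest levels were small. The 27 transcripts together took 201 to 624 CPM per library (median 371), and 2410006H16Rik and 6430411K18Rik held 62.7% of it on average. 6 transcripts averaged over 10 CPM and 15 under 3 CPM. Of 9 embryonic stem cell markers Pou5f1 ranged from 12.8 to 101 CPM and Nanog from 21.5 to 87.0 CPM, while Sox2 was listed at 0 in every library (reads over more than 1 gene of a strand were not counted). The 10 fibroblast markers summed to 2.9 to 8.29 CPM in the degron libraries. Reads in genes spanning under 3 kb made up 1.13 to 1.65% of the ZCCHC8 libraries, 0.818 to 1.71% of YTHDC1, 1.24 to 2.41% of ZFC3H1 and 0.472 to 4.51% of METTL3. The METTL3 extremes were both clone C3, with Dox and with dTAG + Dox. The tags act on protein, so RNA levels of the tagged genes do not check the depletion.

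More of the short Rik transcripts were called on ZCCHC8 depletion than in any of the other fits. With Dox, 17 of the 26 tested rose and 1, 6430411K18Rik, fell, by limma at an adjusted p under 0.05. Over all genes tested 25.2% rose and 15.2% fell. Without Dox 14 rose and 2 fell, against 19.9% and 16.2% of all genes. These counts include transcripts that passed the limits on level through the very libraries in which they were high. 23 of the 26 tested, and 14 of the 17 that rose with Dox, averaged 1 CPM or more in the ZCCHC8 libraries without dTAG. The other 3 that rose were 0610011F06Rik, 1700096K18Rik and B930059L03Rik, at means of 0.781, 0.641 and 0.678 CPM there. Over the whole series without the libraries with dTAG, 1700096K18Rik, B930059L03Rik, D330023K18Rik and 4930404N11Rik would fall below the limit of 1 CPM. 12 transcripts rose in both contrasts, which is 12 of the 17 with Dox and 12 of the 14 without. The median change was 0.53 on the log2 scale with Dox and 0.40 without, against 0.04 and -0.01 over all genes. A fold in bulk RNA does not tell more RNA per cell from more cells with the RNA.

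1700096K18Rik, a lncRNA on chromosome 5 and 11990 bp from the nearest gene, Cct8l1, was below 1 CPM in every ZCCHC8 library without dTAG. In clones Z4F and Z12H, in that order, it stood at 0.430 and 0.765 CPM untreated, 6.86 and 9.74 with dTAG, 0.634 and 0.735 with Dox and 8.95 and 9.87 with dTAG + Dox. Every library with dTAG lay above every library without it. The log2 change of log2(CPM + 1) in the 2 clones was 2.63 ± 0.15 (SE) with Dox and 2.53 without. The SE here and below comes from the spread pooled over the whole fit. The ratio of mean CPM was 13.7 and 13.9. The pseudocount of 1 makes the log2 change smaller than the ratio for transcripts this low. Its mean over the 80 libraries was 1.3 CPM, and 0.906 CPM without the 4 ZCCHC8 libraries with dTAG. It is in the set only through the group in which it is high, and these values describe it and support nothing.

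2700046G09Rik, a lncRNA on chromosome 19 and 94584 bp from the nearest gene, Minpp1, stood at 1.19 and 1.69 CPM untreated, 8.59 and 8.32 with dTAG, 1.31 and 1.37 with Dox and 8.71 and 8.99 with dTAG + Dox. The groups with and without dTAG did not overlap. It rose by 2.07 ± 0.14 (SE, limma adjusted p = 1.86e-08) with Dox, a ratio of 6.61, and by 1.96 without. 4632427E13Rik, a lncRNA whose start lies 254 bp from that of Rab30, a small GTPase of the Golgi, stood at 15.4 and 15.4 CPM untreated, 39.7 and 40.1 with dTAG, 11.9 and 14.4 with Dox and 48.5 and 55.3 with dTAG + Dox. Again no dTAG library fell within the range of the others, and the dTAG + Dox libraries were above those with dTAG alone. Its change was 1.91 ± 0.09 (SE, limma adjusted p = 3.98e-10) with Dox and 1.32 without.

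4930414L22Rik is Particl, a lncRNA antisense to Mat2a, the enzyme that makes the methyl donor S-adenosylmethionine. It stood at 1.29 and 1.37 CPM untreated, 3.53 and 6.19 with dTAG, 1.01 and 1.52 with Dox and 5.67 and 6.56 with dTAG + Dox. The lowest dTAG library, clone Z4F without Dox, was still above every library without dTAG. The change was 1.66 ± 0.15 (SE, limma adjusted p = 2.92e-07) with Dox and 1.29 without. 2610524H06Rik, which RefSeq lists as protein-coding, stood at 2.29 and 2.38 CPM untreated, 7.26 and 8.74 with dTAG, 2.35 and 2.7 with Dox and 9.99 and 8.79 with dTAG + Dox. Groups did not overlap, and the change was 1.56 ± 0.14 (SE, limma adjusted p = 2.46e-07) with Dox and 1.43 without.

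2410021H03Rik, a lncRNA antisense to Epb4.1l3, a gene of the membrane cytoskeleton, stood at 10.5 and 10.4 CPM untreated, 29.6 and 31.0 with dTAG, 7.87 and 10.8 with Dox and 25.6 and 30.1 with dTAG + Dox. The dTAG libraries were all above the others. It rose by 1.49 ± 0.13 (SE, limma adjusted p = 1.87e-07) with Dox and by 1.45 without. The other 11 transcripts that rose with Dox, 5730408K05Rik among them, changed by 0.31 to 1.35.

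Of these 11, 4 that rose in both contrasts are described here, chosen after their values were seen. B930059L03Rik, a lncRNA on chromosome 12 and 8715 bp from the nearest gene, Dync1h1, stood at 0.669 and 0.846 CPM untreated, 2.80 and 3.50 with dTAG, 0.560 and 0.637 with Dox and 2.89 and 3.25 with dTAG + Dox. Its dTAG libraries were all above the others, and the change was 1.35 with Dox and 1.24 without. It too met the level limit only through these libraries (1.1 CPM over the 80 libraries, 0.996 CPM without the 4), so the values are a description. 2010320M18Rik, whose start lies 149 bp from that of Pik3r2, a regulatory subunit of phosphoinositide 3-kinase, stood at 1.19 and 1.45 CPM untreated, 2.46 and 3.50 with dTAG, 1.04 and 2.06 with Dox and 4.09 and 4.13 with dTAG + Dox. It rose by 1.03 (limma adjusted p = 5.06e-05) and 0.77, while Pik3r2 changed by -0.05 (adjusted p = 0.774) with Dox.

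4930429B21Rik, a lncRNA antisense to Zmat3, an RNA-binding zinc finger gene and known p53 target, stood at 1.38 and 1.77 CPM untreated, 6.26 and 4.82 with dTAG, 1.98 and 2.16 with Dox and 3.70 and 3.92 with dTAG + Dox. It rose by 1.34 without Dox and 0.65 with Dox (limma adjusted p = 2.73e-06 and 0.00185), and the difference between these changes was not called. 3000002C10Rik, a transcribed pseudogene, stood at 1.10 and 1.21 CPM untreated, 3.26 and 3.36 with dTAG, 1.19 and 1.18 with Dox and 3.59 and 2.91 with dTAG + Dox. It rose by 0.95 with Dox and 1.00 without. The 5 transcripts called in neither ZCCHC8 contrast were 2410004N09Rik, 1810037I17Rik, 1700092M07Rik, 9130221H12Rik and 4930404N11Rik, with changes from -0.38 to 0.14 with Dox.

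**Figure D1:**
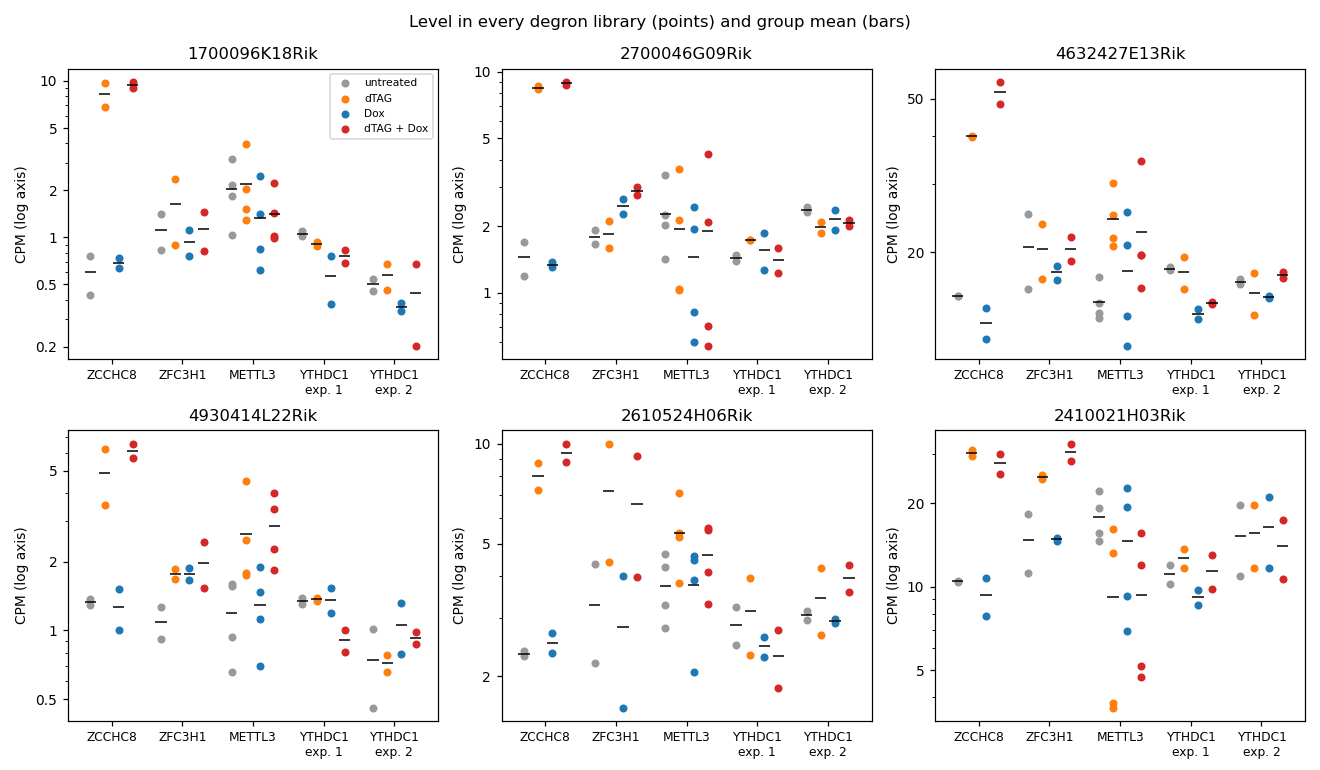
Level of 6 transcripts in every degron library, in CPM on a log axis, with points for libraries coloured by treatment and bars for group means. In ZCCHC8 the libraries with dTAG lie above those without for all 6 transcripts, and 1700096K18Rik, which is in the set through these libraries, reached 6.86 to 9.87 CPM in them against 0.430 to 0.765 CPM. The 6 have the largest rises of the set in these libraries, so the separation follows in part from the choice. The share of all genes with such a separation is not given.

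The transcripts with small RNAs inside showed a different set of values. 6430411K18Rik, the antisense transcript of Rtl1 in the imprinted Dlk1-Dio3 region, stood at 91.9 and 73.8 CPM untreated, 60.6 and 59.0 with dTAG, 97.5 and 82.9 with Dox and 85.3 and 59.2 with dTAG + Dox. The Dox groups overlapped, since clone Z4F with dTAG + Dox lay between the Dox libraries. It fell by 0.33 (limma adjusted p = 0.00857) with Dox and by 0.46 (adjusted p = 0.00117) without. Without clone Z12H the first value was -0.19 (adjusted p = 0.226), and without clone Z4F the second was -0.32 (adjusted p = 0.077).

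2410006H16Rik, a snoRNA host, stood at 159 and 169 CPM untreated, 121 and 129 with dTAG, 186 and 199.6 with Dox and 189 and 160.3 with dTAG + Dox. Without Dox the dTAG libraries were below the untreated ones and the fall was 0.39 (limma adjusted p = 0.000681), while with Dox the change was -0.15 (adjusted p = 0.124) and not called. In clone Z12H alone, with 1 library a group, the change with Dox was -0.31. Under median-ratio scaling of both clones it was -0.26 (adjusted p = 0.0129). 5730408K05Rik, the host of Snora57, stood at 12.7 and 12.3 CPM untreated, 13.4 and 20.8 with dTAG, 13.0 and 16.3 with Dox and 27.2 and 32.5 with dTAG + Dox. It rose by 0.98 (limma adjusted p = 2.51e-05) with Dox, with no overlap, and by 0.39 (adjusted p = 0.0307) without. The second value rested on clone Z12H, and in clone Z4F alone, with 1 library a group, it was 0.08. 2410004N09Rik changed by -0.09 with Dox and -0.23 without and was not called.

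Split by RefSeq class, 12 of 16 tested lncRNAs rose with Dox (median 0.82), as did 3 of 8 protein-coding genes (median 0.30) and 2 of 2 pseudogenes. Without Dox 10 of the lncRNAs rose (median 0.66) and 3 of the coding genes (median 0.15). The transcripts that fell, 6430411K18Rik in both contrasts and 2410006H16Rik without Dox, are lncRNAs with a small RNA inside. Of the 22 tested transcripts with no small RNA inside 16 rose (median 0.59), and of the 4 with one 1 rose (median -0.12). Of the 12 tested lncRNAs with no small RNA inside, a grouping made after the values were seen, 11 rose with Dox and 9 without, with medians of 1.19 and 1.26. By position, 5 of 8 on the opposite strand of a gene, 3 of 5 divergent, 1 of 3 downstream ones and 8 of the other 10 rose. By exon count, 10 of 13 with 1 exon and 7 of 13 with more rose. With a poly(A) hexamer 15 of 20 rose (median 0.70), and without it 2 of 6 (median 0.25). These classes overlap, they include the 3 risen transcripts under 1 CPM without dTAG, and their differences were not tested.

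D330023K18Rik was the only one not tested in the table of ZCCHC8. With no filter on level 17 of 27 rose and 1 fell with Dox. In edgeR 16 rose and 1 fell with Dox, and 13 rose and 2 fell without. The shares of all genes under these 2 settings are not given here. With Dox clone Z12H had a median change of 0.52 with 21 of 26 higher, and clone Z4F 0.61 with 24 of 26 higher. The medians over all genes in these clones were 0.06 and 0.03.

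**Figure D2:**
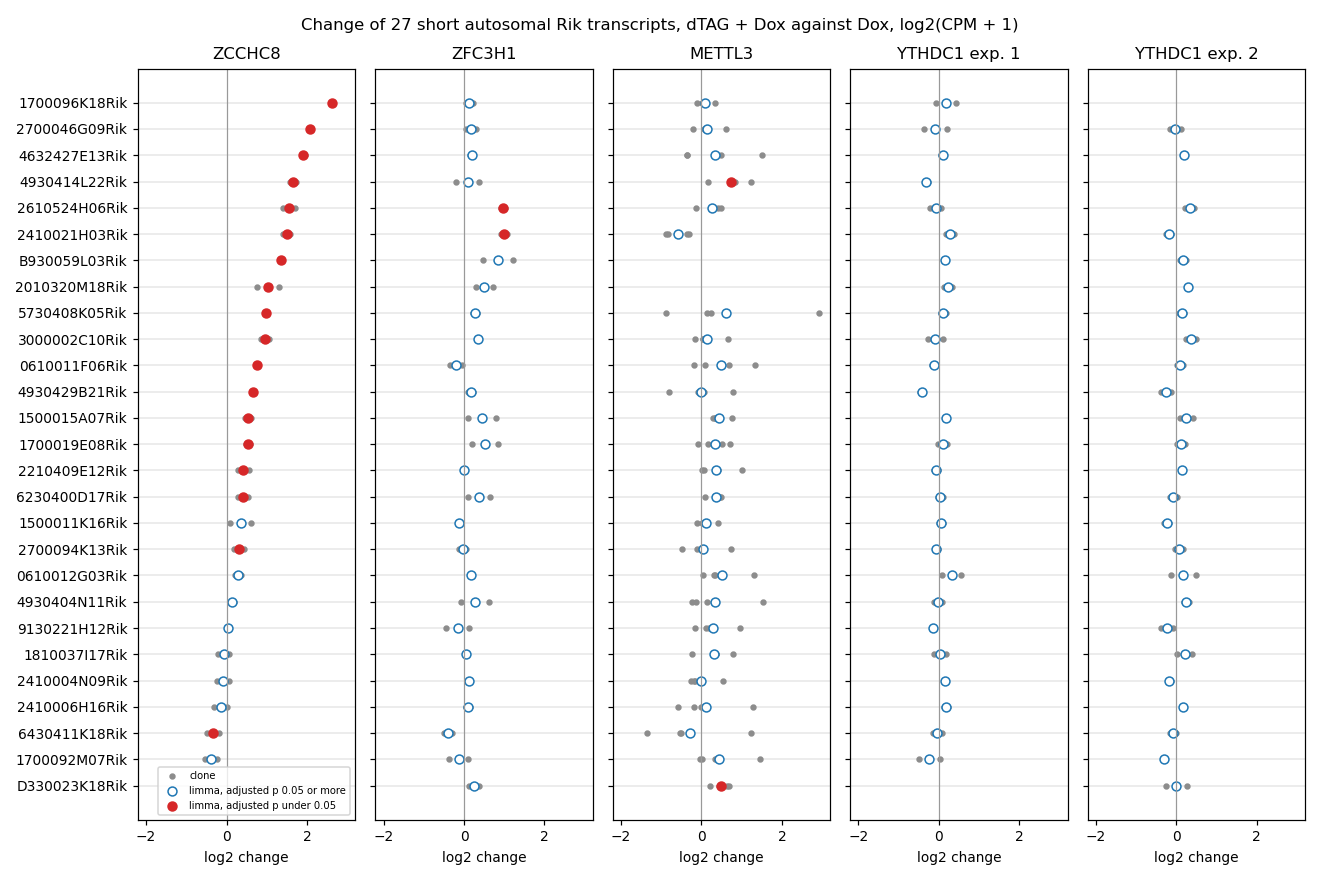
Log2 change of log2(CPM + 1) for each of the 27 transcripts in each line, dTAG + Dox against Dox, with 1 panel per fit, small grey points for single clones, red points for changes called by limma at an adjusted p under 0.05 and open points for the others. The red points lie mainly in the ZCCHC8 panel, where 17 rose and 1 fell, and an untested transcript has no point.

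Many other short genes and longer Rik genes also rose on ZCCHC8 depletion. Among other autosomal genes under 2000 bp, 49.6% of 238 tested rose and 2.52% fell with Dox (median 0.37). Among autosomal Rik genes of 2000 bp or more, 53.5% of 626 rose and 5.59% fell (median 0.36). For the short Rik transcripts the corresponding shares were 65.4% and 3.85%. These transcripts had to average 1 CPM over the 80 libraries as well as in the fit, whereas the other sets met only the limit of the fit. Their 65.4% also counts 3 that averaged under 1 CPM in the ZCCHC8 libraries without dTAG. Of the 23 at 1 CPM or more there, 14 rose. Without Dox 29.4% of the other short genes rose (median 0.21) and 48.7% of the longer Rik genes (median 0.32). The difference between these sets was not tested.

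**Figure D3:**
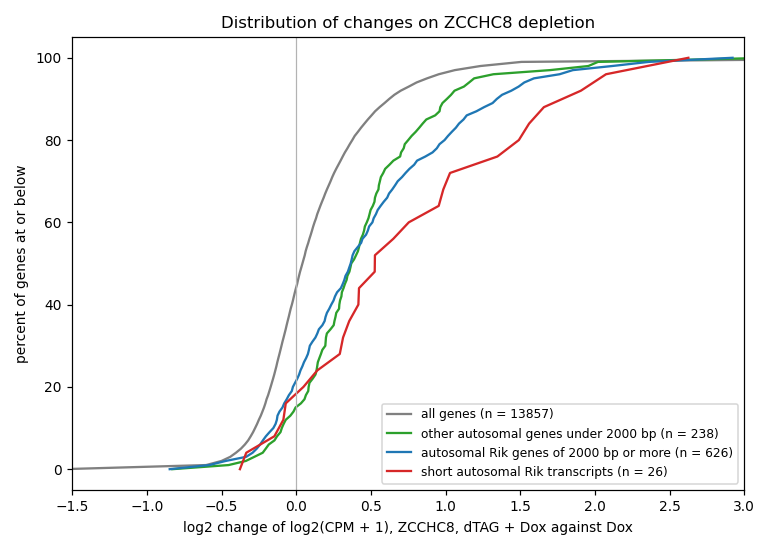
Cumulative distribution of the log2 change of log2(CPM + 1) on ZCCHC8 depletion, dTAG + Dox against Dox, for the short Rik transcripts, other short autosomal genes, longer autosomal Rik genes and all genes tested. The x axis leaves out the most extreme values, and the curve of the short Rik transcripts lies to the right of the others over most of its upper part, with medians of 0.53, 0.37, 0.36 and 0.04 in that order. Only the short Rik transcripts also had to average 1 CPM over the 80 libraries.

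Most of the genes beside the risen transcripts were not called. Of the 9 that rose with Dox and had a partner gene (antisense, divergent or upstream on the same strand), 8 had a partner that was tested. Among these partners 2 rose and 6 were not called by limma (partner median 0.05). That share of risen genes is near the one over all genes tested, of which 25.2% rose and 15.2% fell. Rab30 changed by 0.39 ± 0.06 (SE, limma adjusted p = 8.65e-05) beside 1.91 for 4632427E13Rik. Chchd1, which codes for a mitochondrial ribosomal protein and lies antisense to 6230400D17Rik, changed by 0.34 (adjusted p = 0.0273) beside 0.42. Mat2a changed by 0.21 (adjusted p = 0.07) beside 1.66 for 4930414L22Rik, and Epb4.1l3 by 0.08 (adjusted p = 0.413) beside 1.49 for 2410021H03Rik. The other way round, 4933405D12Rik, a longer Rik gene divergent from 1810037I17Rik, changed by 0.62 (adjusted p = 0.00044) beside -0.07. Without Dox 7 partners of risen transcripts were tested, of which 1 fell and 6 were not called, while 19.9% of all genes rose and 16.2% fell. Counting was by strand, so reads of antisense partners were kept apart.

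**Figure D4:**
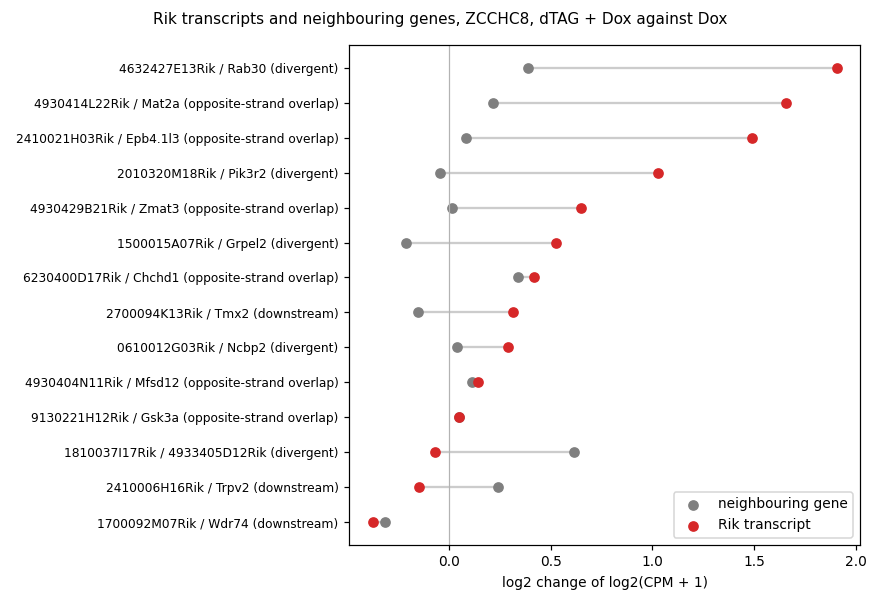
Log2 change of log2(CPM + 1) on ZCCHC8 depletion, dTAG + Dox against Dox, for 14 Rik transcripts (red) and the partner gene of each (grey), joined by a line for each pair. The widest pair is 4632427E13Rik at 1.91 beside Rab30 at 0.39, and the partners of the 8 transcripts that rose lie between -0.21 and 0.39.

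YTHDC1 depletion left nearly all of the set uncalled, and its first experiment shares a table with ZCCHC8, so the 2 depletions could be compared directly. In experiment 1 limma called 0 of 26 transcripts with Dox, against 15.5% of all genes, with 4 at an unadjusted p under 0.05 and 1 lower in edgeR. Without Dox it called 1 higher, 0610012G03Rik at 0.42, against 19.0%. In experiment 2 it called 0 of 25 with Dox, against 14.7%, with 4 at an unadjusted p under 0.05 and 0 in edgeR. Without Dox it called 1 lower, 1700092M07Rik at -0.46, against 17.8%. The latter 2 were named after their values were seen. The median change with Dox was 0.03 in experiment 1 and 0.12 in experiment 2.

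In clones Y9F and Y12H of experiment 1, 1700096K18Rik stood at 0.763 and 0.376 CPM with Dox and 0.691 and 0.836 with dTAG + Dox. 2700046G09Rik stood at 1.87 and 1.27 CPM with Dox and 1.23 and 1.59 with dTAG + Dox. The groups overlapped for both transcripts, and their changes were 0.18 and -0.09. 4930414L22Rik stood at 1.19 and 1.54 CPM with Dox and 0.806 and 1.00 with dTAG + Dox, a change of -0.31 (limma adjusted p = 0.179). It was lower with dTAG in both clones, yet not called.

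The test of the difference between the 2 depletions, ZCCHC8 minus YTHDC1 experiment 1, called 12 transcripts higher and 1 lower with Dox, against 17.0% and 12.7% of all genes. Without Dox it called 12 higher and 1 lower, against 13.9% and 11.2%, and 10 were higher in both contrasts. The difference was 2.16 ± 0.20 (SE) for 2700046G09Rik, 1.97 ± 0.21 for 4930414L22Rik and 1.82 ± 0.13 for 4632427E13Rik with Dox, with limma adjusted p of 1.36e-06, 4.59e-06 and 9.25e-08. For 1700096K18Rik, which passed the limits only through the ZCCHC8 libraries with dTAG, it was 2.45 as a description. The counts of this test and the median differences include 1700096K18Rik. The transcripts tested also include 0610011F06Rik and B930059L03Rik, which passed the filter of this fit only through the ZCCHC8 libraries with dTAG. The counts and medians are therefore a description. The median difference was 0.46 with Dox and 0.40 without. The lower one was 2410006H16Rik, at -0.32 (adjusted p = 0.0296) and -0.33 (adjusted p = 0.0287). Leaving out a clone leaves 1 library a group in that line. Its first value lost the call without clone Y12H (-0.28), Y9F (-0.36) or Z12H (-0.15). Its second lost it without Y9F (-0.24), Z12H (-0.33) or Z4F (-0.33).

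ZFC3H1 depletion changed few transcripts. Those called higher in either contrast had also risen on ZCCHC8 depletion, but so had 19 of the 26 tested there, so the overlap says little. It also includes B930059L03Rik, which passed the filter only through libraries with dTAG. Limma called 2 of 27 with Dox, both higher, against 3.15% of all genes in either direction, with 3 higher in edgeR. Without Dox it called 2 higher and 1 lower, against 2.15%. The median change with Dox was 0.17. With Dox 1.66% of other short genes were called and of longer Rik genes 11.7%.

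In clones 8H and 11A, in that order, 2410021H03Rik stood at 18.2 and 11.2 CPM untreated, 25.2 and 24.4 with dTAG, 14.6 and 15.0 with Dox and 28.5 and 32.8 with dTAG + Dox. Each library with dTAG lay above each without. The change was 1.00 ± 0.18 (SE, limma adjusted p = 0.0164) with Dox, a ratio of 2.07, and 0.76 (adjusted p = 0.058), not called, without. In clone 11A alone, with 1 library a group, the latter was 1.06. 2610524H06Rik stood at 4.36 and 2.19 CPM untreated, 10.0 and 4.41 with dTAG, 4.0 and 1.61 with Dox and 9.17 and 3.97 with dTAG + Dox. Clone 8H was above clone 11A in every treatment, and the groups with Dox overlapped, while both clones were higher with dTAG. It changed by 0.98 ± 0.16 (SE, limma adjusted p = 0.00967) with Dox and 0.90 (adjusted p = 0.0171) without. In clone 11A alone, with 1 library a group, the first value was 0.93.

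Without Dox B930059L03Rik, named after its values were seen, changed by 1.03. It averaged 0.844 CPM in the ZFC3H1 libraries without dTAG and passed the filter only through those with dTAG, so its call supports nothing. 6430411K18Rik fell by 0.70 (limma adjusted p = 0.0152). 6430411K18Rik stood at 271 and 98.5 CPM untreated, 159.9 and 62.6 with dTAG, 172 and 92.3 with Dox and 139.9 and 65.5 with dTAG + Dox. In both clones it was lower with dTAG, and with Dox its change was -0.39 (adjusted p = 0.11), not called, and -0.49 (adjusted p = 0.0454) without clone 8H. 1700096K18Rik and 2700046G09Rik changed by 0.13 and 0.17 with Dox and were not called. The ZFC3H1 and ZCCHC8 lines are in separate tables, and their values were set side by side with no test.

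METTL3 depletion called 2 of 25 transcripts with Dox, both higher, against 10.5% of all genes in either direction. Without Dox it called the same 2 higher and 1 lower, against 23.3%. The 2 were Particl (4930414L22Rik) and D330023K18Rik, a lncRNA divergent from Gpr107, and the lower one was 2410021H03Rik. 1 of the 2 called higher, Particl, averaged 1 CPM or more in the METTL3 libraries without dTAG. The median change was 0.32 with Dox and 0.23 without, beside 0.23 and 0.21 over all genes. When the libraries were scaled by median ratios the all-gene median with Dox was -0.02 and the set's 0.07.

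In clones G4, H1, C3 and H5, in that order, 4930414L22Rik stood at 1.90, 0.697, 1.13 and 1.47 CPM with Dox and 2.26, 1.83, 4.0 and 3.39 with dTAG + Dox. All 4 clones were higher with dTAG, though the groups overlapped. It changed by 0.74 ± 0.20 (SE, limma adjusted p = 0.0358), and with 1 clone left out the adjusted p was 0.0982 without C3, 0.0511 without G4, 0.0838 without H1 and 0.149 without H5. Under median-ratio scaling its change was 0.56 (adjusted p = 0.0692). D330023K18Rik stood at 0.564, 0.398, 0.845 and 0.664 CPM with Dox and 0.822, 1.17, 1.96 and 1.25 with dTAG + Dox. Again all 4 clones were higher and the groups overlapped. Its change was 0.49 ± 0.13 (SE, limma adjusted p = 0.0332), and the adjusted p was 0.0593 without G4, 0.0992 without H1 and 0.132 without H5. Without C3 it fell below the filter and was not tested. Under median-ratio scaling it was 0.35 (adjusted p = 0.103). D330023K18Rik averaged 0.707 CPM in the METTL3 libraries without dTAG and passed the filter only through those with dTAG, so its calls support nothing. In edgeR neither was called, with 4 of 25 at an unadjusted p under 0.05. Without Dox the changes were 0.70 (limma adjusted p = 0.0267) and 0.45 (adjusted p = 0.0261). The first was not called without G4, H1 or H5 (adjusted p of 0.0677, 0.0557 and 0.12), nor the second without C3 or H1 (0.0882 and 0.0688), and without H5 it was not tested.

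2410021H03Rik stood at 15.7, 14.6, 19.2 and 22.1 CPM untreated and 3.67, 3.82, 16.1 and 13.2 with dTAG. Clones G4 and H1, with the N-terminal tag, were low with dTAG, while clone C3 with dTAG lay within the untreated range and clone H5 just below it. The change was -1.12 ± 0.23 (SE, limma adjusted p = 0.00571), lower in 4 of 4 clones, and without clone G4 it was -0.88 (adjusted p = 0.0531). With Dox it stood at 9.22, 6.92, 19.4 and 22.7 CPM with Dox and 4.73, 5.16, 15.6 and 11.9 with dTAG + Dox. All 4 clones were again lower, with a change of -0.59 (adjusted p = 0.107) that was not called, and under median-ratio scaling -0.85 (adjusted p = 0.0436). The transcript rose on loss of ZCCHC8, and was called higher on loss of ZFC3H1 with Dox and lower on loss of METTL3 without Dox. The ZFC3H1 and METTL3 calls were thus not in the same contrast. The lines are in separate tables with no test between them.

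Clone C3 with dTAG + Dox had high values of 3 of the 4 transcripts with small RNAs inside. In it 24 of the 25 tested transcripts were higher than in C3 with Dox. All genes tested also shifted up between these libraries, with a median change of 0.38. 6430411K18Rik, the fourth, stood at 184, 184, 62.7 and 147 CPM with Dox and 128, 127, 148 and 56.7 with dTAG + Dox. Its C3 library with dTAG + Dox lay within the range of the libraries with Dox, but was the highest of its own group. From Dox to dTAG + Dox it rose in C3 and fell in the other clones. 5730408K05Rik stood at 31.7, 15.7, 11.4 and 19.4 CPM with Dox and 16.7, 17.3, 92.3 and 23.1 with dTAG + Dox. 2410006H16Rik stood at 118, 91.9, 80.7 and 87.5 CPM with Dox and 78.2, 91.2, 196 and 77.3 with dTAG + Dox. For 2410006H16Rik and 5730408K05Rik too C3 with dTAG + Dox was the highest of its group. The share of reads in genes under 3 kb went from 0.472% to 4.51% between the Dox and the dTAG + Dox library of that clone. With this share as a covariate 3 transcripts were called with Dox and 5 without. The share of all genes called with the covariate is not given here, so the counts are not read as a gain. By clone the median change of the set with Dox was 0.78 in C3, -0.16 in G4, 0.11 in H1 and 0.05 in H5. Over all genes it was 0.38, 0.03, 0.07 and 0.30 in the same order, so the set lay below all genes in G4 and H5. Without C3 the set's median was 0.05 in place of 0.32.

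**Figure D5:**
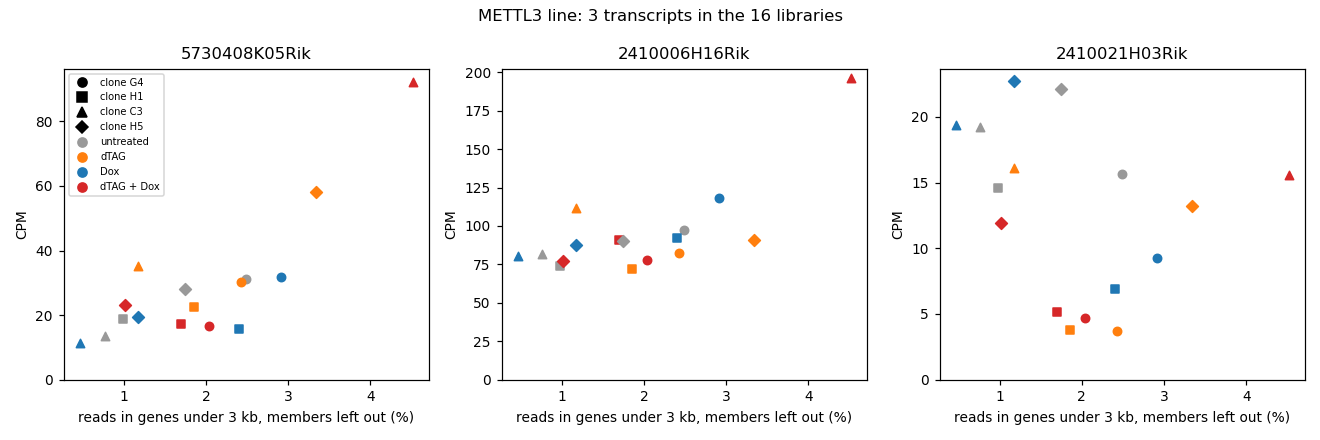
Level of 3 transcripts in the 16 METTL3 libraries (y axis, CPM) against the share of reads in genes spanning under 3 kb, the 27 transcripts left out (x axis, percent), with marker shape for clone and colour for treatment. Clone C3 with dTAG + Dox, at 4.51%, holds the highest value of 5730408K05Rik and 2410006H16Rik, while 2410021H03Rik is lowest in clones G4 and H1 with dTAG.

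The responses with and without Xist induction were also tested against each other. The difference between the dTAG effect with and without Dox was called for 0 transcripts in each of the 5 fits by limma. At an unadjusted p under 0.05 there were 1 in METTL3, 6 in ZCCHC8, 1 and 1 in the YTHDC1 experiments and 0 in ZFC3H1. Over all genes 0, 33, 1, 3 and 0 were called in that order.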

How the data were processed

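The 27 transcripts, the gene lists and the groupings were chosen with earlier results of these data known. The authors removed rRNA reads with bowtie2, mapped the rest to an N-masked mm10 genome with STAR, counted unique reads over whole transcript spans by strand with featureCounts, and deposited CPM values from edgeR. Each of the 6 tables held all 22556 genes, and 12 columns that match no library analysed here were not used. CPM scales each library to its total, so a change in a few abundant RNAs shifts all other values, and it is not divided by length.

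All values came out as whole reads (100%, within 0.0002 CPM), with 8.58 to 34.4 M reads per library (median 22.5). None of 56 pairs of replicate libraries was identical, and they differed by at least 8.06 in chi-square over its degrees of freedom. The test was limma (version 3.58.1, R version 4.3.3, with lmFit and eBayes with trend) of log2(CPM + 1), on genes with a mean of 1 CPM or more over the libraries of a fit, with all libraries of a table and clone as a block. It was two-sided, with Benjamini-Hochberg adjustment over all genes tested, and a call was an adjusted p under 0.05. Clones pair the libraries by design. The mean correlation of their deviations was 0.294 to 0.602 in METTL3, 0.493 in ZCCHC8, 0.377 and 0.735 in YTHDC1 and 0.866 in ZFC3H1. Transcripts were named if called in 3 or more fits with Dox, among the 5 largest called changes of a fit, or among the 5 with the highest mean CPM. Alternatives were edgeR 4.0.16 quasi-likelihood tests on the recovered reads, median-ratio scaling, a pseudocount of 0.1, no filter on level, no block, fewer libraries, each clone left out, and for METTL3 the share of short-gene reads as a covariate. Scripts were tested on simulated data. Of 12512 genes with the same end in RefSeq, 76.2% had a RefSeq start 1 base after the deposited start, so deposited starts were read as counted from 0.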

Additional observations from a re-analysis of the deposited data

Results flagged for a closer look

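In 3 of 44 groups of 4 libraries tested, 1 library lay far from the others (by Dixon's criterion at its 95% level, which chance meets in about 1 of 20 groups). All 3 were METTL3 clone C3 with dTAG + Dox, at 196 CPM for 2410006H16Rik, 48.7 CPM for 2410004N09Rik and 92.3 CPM for 5730408K05Rik, the library in which 4.51% of reads lay in genes under 3 kb.

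The effect of dTAG differed between ZCCHC8 and YTHDC1 (experiment 1) by the limma test of the difference. With Dox the log2 differences were 2.45 for 1700096K18Rik, 2.16 for 2700046G09Rik, 1.97 for 4930414L22Rik, 1.82 for 4632427E13Rik, 1.64 for 2610524H06Rik, 1.22 for 2410021H03Rik, 0.87 for 5730408K05Rik and -0.32 for 2410006H16Rik. Without Dox they were 2.64 for 1700096K18Rik, 1.80 for 2700046G09Rik, 1.35 for 4632427E13Rik, 1.34 for 2610524H06Rik, 1.28 for 4930414L22Rik, 1.27 for 2410021H03Rik and -0.33 for 2410006H16Rik. 1700096K18Rik passed the limits on level only through the ZCCHC8 libraries with dTAG, so its values are a description. The calls of 2410006H16Rik ended with most clones left out.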

How the results depend on the processing

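Counts of transcripts called on ZCCHC8 depletion stayed between 15 and 18 with Dox and 11 and 17 without over all alternatives, and those of its difference from YTHDC1 between 10 and 15 and between 9 and 14. With no clone block (pairing of libraries by clone) they were 15, 11, 10 and 9. With 1 clone left out they were 16 to 16, 12 to 13, 11 to 13 and 10 to 11, where the lone clone is assumed to vary like the other groups. The ZCCHC8 median of 0.53 with Dox became 0.43 with median-ratio scaling, 0.60 in edgeR, 0.62 with a pseudocount of 0.1, and 0.48 to 0.61 with 1 clone left out.

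The few calls in the other lines moved with most settings. For the alternatives, here and for ZCCHC8, the shares of all genes called are not given beside the counts. METTL3 had 2 with Dox and 3 without. With Dox it had 1 with median-ratio scaling or all genes, 0 in edgeR, with no clone block or with only the groups compared, and 0 to 0 with 1 clone left out. Without Dox it had 0 with no block, 5 once the share of reads in short genes entered as a covariate, and 1 to 2 with 1 clone left out. YTHDC1 experiment 1 had 0 and 1. With Dox it had 1 with median-ratio scaling, edgeR or a pseudocount of 0.1, and 4 with only the groups compared. Without Dox it had 0 with a pseudocount of 0.1, all genes, no block, only the groups compared or 1 clone left out. Its median of 0.03 with Dox became 0.0099 with median-ratio scaling and 0.0373 to 0.0635 with 1 clone left out. YTHDC1 experiment 2 had 0 and 1. With Dox it had 1 with only the groups compared. Without Dox it had 2 with median-ratio scaling or edgeR and 0 with no block. The change of 6430411K18Rik without Dox, -0.00 with both clones, was 0.29 in clone Y12H alone and -0.29 in clone Y9F alone. ZFC3H1 had 2 and 3. Both became 0 with all genes or no block and 5 with only the groups compared, and 2 to 4 and 5 to 5 with 1 clone left out. Its median of 0.17 with Dox became 0.25 in edgeR and 0.22 with a pseudocount of 0.1. The 30 alternatives with 0 calls had 0 to 7 at an unadjusted p under 0.05. The causes were not tested.

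Of 1076 values of named transcripts under an alternative, 992 kept direction and side of the threshold, 55 lost a call, 28 gained one and 1 turned. Leaving out transcripts that overlap a gene on the same strand removes 0 of 27. At levels near 1 CPM each library holds few reads, which limits what can be called.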

Other observations

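1700019E08Rik and 2210409E12Rik, picked after their values were seen, differed between the ZFC3H1 clones in every treatment. 1700019E08Rik stood at 1.50, 1.98, 1.16 and 1.50 CPM in clone 8H and 21.7, 30.7, 17.6 and 32.5 CPM in clone 11A, and 2210409E12Rik at 3.43, 3.83, 3.90 and 3.88 and 19.3, 13.9, 16.4 and 16.4 CPM, in the order untreated, dTAG, Dox, dTAG + Dox.

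In the METTL3 clone H5 lines with a transgene, 4930414L22Rik changed from Dox to dTAG + Dox by 0.37 and -0.26 in the 2 experiments with wild-type XX, 0.47 and 0.01 with D395A XX, 0.48 and -0.28 with wild-type XiO, and 0.41 and 0.41 with D395A XiO. D330023K18Rik changed by -0.38 and -0.17, 0.32 and -0.06, -0.57 and 0.45, and -0.14 and 0.51 in the same order. These are log2 changes of log2(CPM + 1) from 1 library a treatment, with no test.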
